A study of Drosophila melanogaster with 4 samples.

Results

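The Antennapedia complex is a cluster of homeotic and related homeobox genes on the right arm of chromosome 3 (3R) of Drosophila melanogaster. It was examined here as the window 3R:2480000-2840000 of genome release 5, which spans 360 kb, with labial (lab) at the low-coordinate end and Antennapedia (Antp) at the high-coordinate end, at about 2720000 to 2826000. Every region of significant LSD1 enrichment that overlapped the window by at least 1 bp was taken. These were 6 of 8115 regions in the list of replicate 1, 6 of 9911 in the list of replicate 2 and 8 of 11016 in the combined list. The positions of the window did not depend on the measured values. The members, lists and rules were, however, chosen with earlier results of these data known. The members of the complex followed here are lab, pb, zen, bcd, Dfd, Scr, ftz and Antp.

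The data are ChIP-seq of LSD1 (antibody Q3430) in head chromatin of mixed adult flies of the wild-type strain Oregon-R, collected from population cages. There were 2 ChIP samples and 2 input samples, each group numbered as replicates 1 and 2, and no other genotype, tissue or treatment. The labels do not tie the replicates to separate collections, and their spread could be purely technical. Heads hold many cell types, and strong occupancy in few cells cannot be told apart from weak occupancy in many. Lists of regions carry no expression values, so the tissue was not checked against markers.

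LSD1 is a histone demethylase that removes methyl groups from lysine 4 of histone H3. The fly protein is the product of Su(var)3-3, and it acts in chromatin complexes with CoREST and histone deacetylases. The homeotic genes encode homeodomain transcription factors that give segments their identity along the body axis, and their on or off state, set in the embryo, is kept afterwards by Trithorax group and Polycomb group proteins. No histone mark was measured in these samples.

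In the RefSeq gene table of release 6, used only for the order of genes, 43 genes run from lab to Antp, and all 8 members were matched there by symbol. The order begins with lab, needed for parts of the head, and continues with the cuticle gene Edg84A and 7 cuticle genes of the Ccp84A group. Next come pb, which specifies mouthparts, and zen2, zen and bcd. The gene zen acts in dorsal and extraembryonic tissue, zen2 is its near relative, and bcd is the maternal determinant of the anterior pole. Amalgam (Ama), a gene of a secreted immunoglobulin-domain protein, precedes Dfd, which specifies posterior head segments. A group of 4 tRNA genes and 2 SRP RNA genes lies between Dfd and Scr, the gene for labial and first thoracic identity. The pair-rule gene ftz and the thoracic homeotic gene Antp close the order. The table follows another release than the lists. Regions are therefore given by coordinates and not by gene, and only the interval that the definition of the window gives to Antp was treated on its own.

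LSD1 regions covered little of the Antennapedia complex. Of the 360 kb, replicate 1 covered 11.3 kb (3.14%) and replicate 2 covered 13.5 kb (3.75%). The combined list covered 16.6 kb (4.62%). The mean of the replicates was 3.44% ± 0.431 (SD, n = 2). The same lists covered 26.9%, 30.4% and 37.9% of the whole of 3R.

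When 3R was divided into 76 adjoining windows of 360 kb, the window of the complex had the smallest covered share in each of the 3 lists. The median of the other windows was 27.1% in replicate 1, 8.64 times the share of the complex. It was 30.6% in replicate 2, 8.16 times that of the complex, and 39.95% in the combined list, 8.65 times that of the complex. The share of the complex minus that median was −25.4 percentage points ± 2.02 (SD, n = 2), a difference larger than the spread between replicates. That SD does not measure the spread between windows. The other windows ranged from 6.20% to 53.1% in replicate 1 and from 8.58% to 61.4% in replicate 2. The next lowest window was 3R:11120001-11480000 in every list, with 6.20%, 8.58% and 9.88%, which were 1.98, 2.29 and 2.14 times the shares of the complex. With 2 replicates the smallest two-sided p of an exact sign-flip test is 0.5, so none was computed, and ranks among windows of the same libraries are descriptions.

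**Figure D1:**
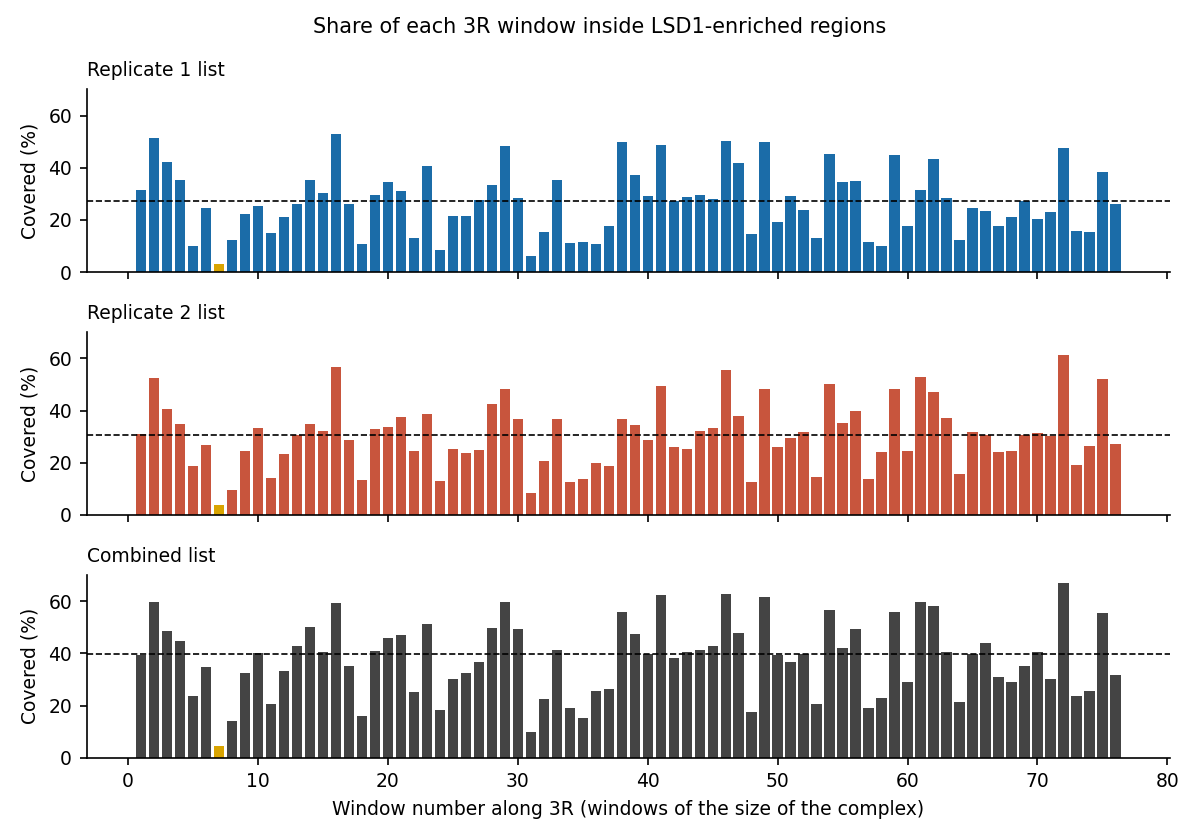
Percentage of bases inside LSD1-enriched regions (y axis) in each of the 76 windows of 360 kb along 3R (x axis, window number), one panel per list. The yellow bar is the window of the Antennapedia complex and the dashed line the median of the other windows. The yellow bar is the lowest in each panel, at 3.14%, 3.75% and 4.62%.

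The number of regions was also the lowest of the 76 windows in each list. The complex held 6 regions in replicate 1 where the other windows held 9 to 40, with a median of 24. In replicate 2 it held 6 where the others held 13 to 52, with a median of 31, and in the combined list it held 8 where the others held 15 to 55, with a median of 34. Windows beside the complex had more regions. The window below it, 3R:2120001-2480000, was covered to 24.7% in replicate 1 and 27.0% in replicate 2. The window above it, 3R:2840001-3200000, was covered to 12.1% and 9.52%, and its rank from the lowest was 3 in replicate 2, 3 in the combined list and 11 in replicate 1. Just outside the limits of the window, the nearest region below ended 6.45 kb away in replicate 1 and 6.44 kb away in replicate 2, and the nearest region above began 59.8 kb and 51.7 kb away. The sparse stretch therefore went on beyond the high-coordinate end of the window and stopped close to its low-coordinate end.

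**Figure D2:**
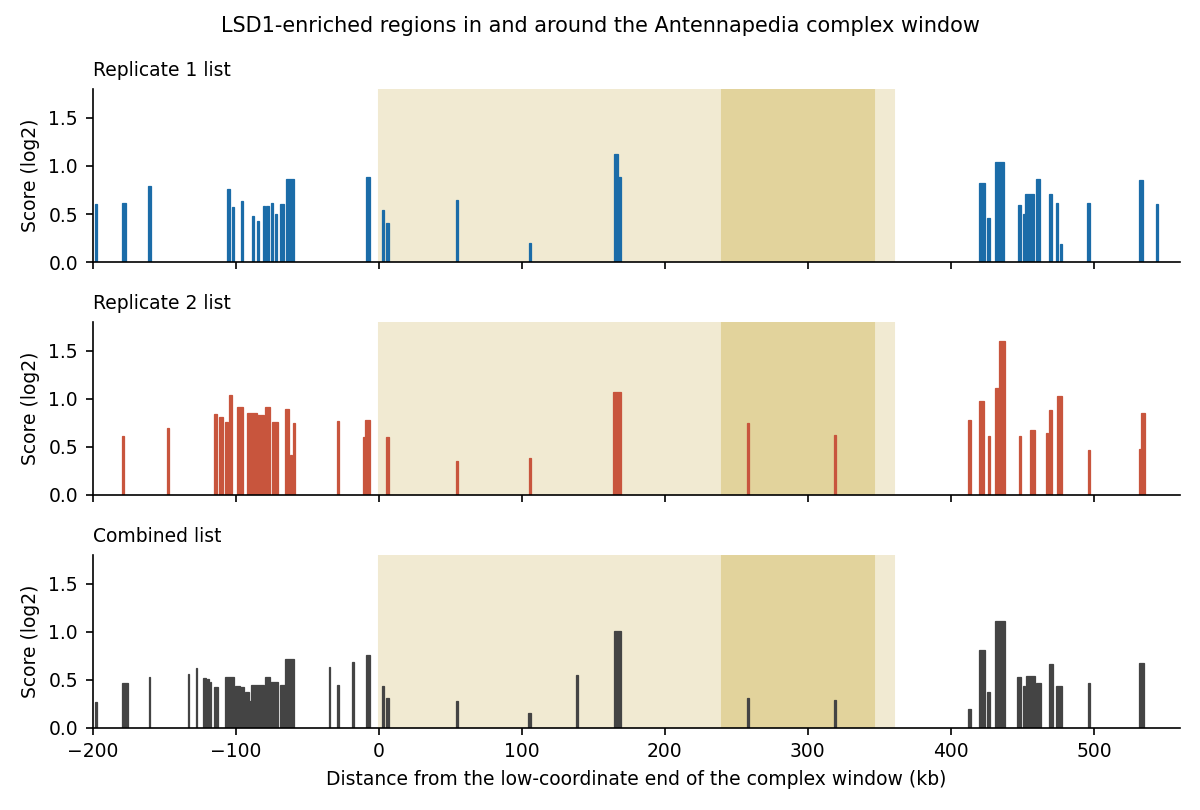
Deposited score on a log2 scale (y axis) of each LSD1-enriched region, drawn at its width, against the distance in kb from the low-coordinate end of the window (x axis), one panel per list. The pale band is the window of the complex, the darker band the interval given to Antp. Groups of closely spaced regions lie outside the band on both sides, while 6, 6 and 8 regions stand inside it.

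The regions of the complex fell at 8 separate sites when all lists were joined. Of these, 4 sites were listed in both replicates and in the combined list, 1 in replicate 1 and the combined list, 2 in replicate 2 and the combined list, and 1 in the combined list alone. The 4 shared sites had closely similar limits in the replicates, with starts 72 to 169 bp apart and ends 10 to 354 bp apart. Scores are the authors' values, read as log2 enrichment over input. Each list carries its own constant, so a score is compared with the other regions of its own list. Fold values below are 2 to the power of the score, with that constant left in. They are not calibrated enrichments over input, because the ChIP-to-input scaling is not given.

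The site with the highest score in every list lay near the middle of the window, 166.8 kb from its low-coordinate end. It was listed as 3R:2644146-2649408 in the combined list, 5.26 kb wide, with a score of 1.01 (2.01-fold). Replicate 2 had 1 region there, 3R:2644090-2649325, with a score of 1.08 (2.11-fold). Replicate 1 had 2 regions separated by 7 bp, 3R:2644259-2647195 with a score of 1.12 (2.18-fold) and 3R:2647203-2649369 with a score of 0.89 (1.85-fold). The highest scores of the replicates averaged 1.10 ± 0.033 (SD, n = 2). Each list has its own constant, so that small SD does not measure agreement between the replicates. Within its own list, the highest score of the site exceeded 94.7% of the 3R regions of replicate 1, 86.9% of those of replicate 2 and 95.7% of the combined ones. This site was also the widest of the complex in every list. Which gene it lies at was not determined, so whether it overlaps the repeated tRNA and SRP RNA genes of the complex was not tested.

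The other shared sites had low scores, with an exception in replicate 1. The shared site nearest the low-coordinate end was listed as 3R:2484956-2486898 in the combined list, with a score of 0.31. It scored 0.41 in replicate 1, above 6.39% of 3R regions, and 0.60 in replicate 2, above 12.3%. At 54.7 kb from the low-coordinate end, the site 3R:2533790-2535582 scored 0.28 in the combined list. It scored 0.65 in replicate 1, above 49.5% of 3R regions, but 0.35 in replicate 2, above 0.464%, so the replicates placed it near the middle and near the bottom of their lists. The site 3R:2584480-2586380, at 105.4 kb, scored 0.20 and 0.39 in replicates 1 and 2, and 0.16 when combined. Those scores exceeded 0.164%, 1.05% and 0.816% of the 3R regions of the respective lists, which makes it one of the weakest listed sites of the arm in all 3 lists.

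The 4 sites not shared by the replicates were each listed with regions of 1241 to 1687 bp. In replicate 1 the region without a partner was 3R:2482148-2483601, with a score of 0.54, above 24.7% of 3R regions. The combined list had it at 0.44, above 39.2%. Replicate 2 had 3R:2737494-2739129 with a score of 0.75, above 36.4%, and 3R:2798193-2799658 with a score of 0.62, above 15.0%. The combined list had these sites at 0.31 and 0.29, above 8.08% and 6.06%. Both lie in the interval given to Antp. The region 3R:2618054-2619294 appeared in the combined list alone, with a score of 0.55, above 70.3% of 3R regions. In that list only the highest-scoring site of the complex exceeded it, so sites missing from a replicate were not always the weaker ones. It was 1241 bp wide, the narrowest listed region of the complex.

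Recurrence between replicates was near that of the remaining regions. In the complex, 5 of 6 replicate 1 regions had a partner in replicate 2, where 75.5% of all replicate 1 regions and 79.5% of those on 3R were. Of these 5, 2 were the parts of the highest-scoring site and shared 1 partner. A partner in replicate 1 was found for 4 of 6 replicate 2 regions, where 70.7% of all replicate 2 regions and 66.6% of those on 3R were. Among 3R regions no wider than the widest of the complex in the same list, 70.4% in replicate 1 and 61.1% in replicate 2 had a partner. In the combined list, 4 of 8 regions of the complex were overlapped by both replicates, against 44.2% of the whole list. Those overlapped by replicate 1 alone, replicate 2 alone and neither numbered 1, 2 and 1, against 16.1%, 19.5% and 20.1% of the whole list. These shares lie near the background, and so few regions allow no closer statement. In covered length, the replicates shared 9617 bp of the complex, a Jaccard index of 0.634, where the median of the other windows was 0.561. At the highest-scoring site, the replicate 1 regions of 2937 and 2167 bp lay almost wholly within the replicate 2 region. This 1 site therefore gave much of the shared length and weighs heavily in the index. The complex ranked 63rd of 76 from the lowest. Its regions were few, and their placement was shared between replicates about as well as elsewhere on the arm.

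No region of the complex reached 10 kb in any list. On 3R, such regions were 139 of 1832 in replicate 1, 127 of 2373 in replicate 2 and 223 of 2574 combined ones. They are a small share of the arm, so 6, 6 and 8 regions could hold none without differing from it. A window without a region of 10 kb was common in the replicates, at 18 and 21 of the other 75 windows, but uncommon in the combined list, at 3 of 75. The widest region of the complex was 2937 bp long in replicate 1, and the widest combined region 5263 bp, the smallest maximum of the 76 windows in each of these lists. In replicate 2 it measured 5236 bp, and 3 other windows had a smaller maximum. The complex held the fewest regions, and a maximum over fewer regions tends to be smaller, so these ranks partly restate the low count. The value of replicate 1 also depends on the 7 bp gap that splits its highest-scoring site. Median widths in the complex were 1712, 1691 and 1740.0 bp in the 3 lists, where the remaining 3R regions had 2168, 2146 and 1997 bp.

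Median scores in the complex were below those of the rest of 3R in each list, by amounts that differed between the replicates. The 6 regions of replicate 1 had a median of 0.59, against 0.65 for the remaining 1826 regions of 3R, and 4 of the 6 lay below that median. In replicate 2 the medians were 0.61 and 0.82, and 5 of 6 lay below. In the combined list they were 0.31 and 0.47, and 6 of 8 lay below. The difference of medians, complex minus rest, was −0.13 ± 0.11 (SD, n = 2), close to the spread between them. By median score the complex was the lowest of the 76 windows in replicate 2 and among combined regions, and 11th from the lowest in replicate 1. Wider regions of 3R had higher scores in these lists (Spearman coefficient across regions 0.678 in replicate 1, 0.662 in replicate 2 and 0.548 for combined regions), so scores were also set beside those of 3R regions within 20% of the same width. On that footing 4 of the 6 regions of replicate 1 lay above the median of their like, whereas 2 of 6 did in replicate 2 and 3 of 8 in the combined list. In replicate 1 the low median score was thus not seen when regions were counted at matched width, but 2 of those 4 were the parts of the highest-scoring site. The other regions above the median exceeded 54.9% and 80.5% of their like, and those below exceeded 11.2% and 0.465%. The site at 3R:2644146-2649408 exceeded 94.5% of 200 regions in the combined list, and its replicate 2 region exceeded 73.2% of 220. The weakest site, 3R:2584480-2586380, exceeded 2.24% of 715 regions in the combined list, and its regions in replicates 1 and 2 exceeded 0.465% and 2.99%.

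**Figure D3:**
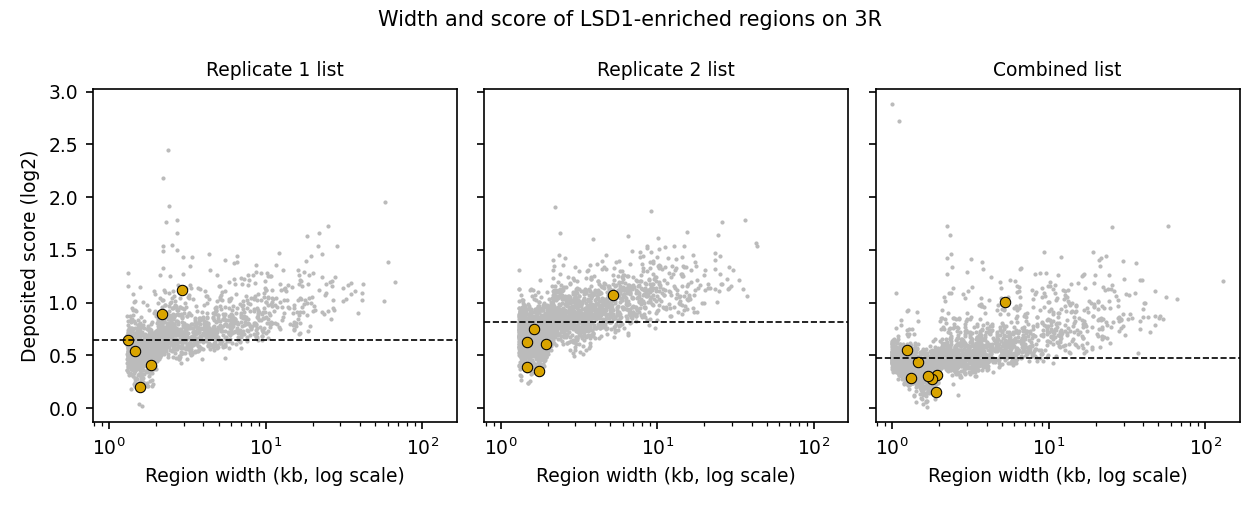
Deposited score on a log2 scale (y axis) against region width in kb on a log scale (x axis) for the LSD1-enriched regions of 3R, one panel per list. Yellow points are the regions of the complex, grey points the rest of the arm, and the dashed line the median score of the rest. Apart from the site with the highest score, the yellow points lie at narrow widths, and 4 of 6, 5 of 6 and 6 of 8 lie below the line.

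Between the sites lay long stretches without a listed region. The longest stretch of the window without a region in any list was 3R:2649409-2737409, 88.0 kb, between the highest-scoring site and the first site in the interval given to Antp. It ranked 13th of 2605 stretches of 3R that were free in all lists. A further stretch, 3R:2799659-2891739, began inside the window and ran beyond it for a total of 92.1 kb, ranking 10th. In replicate 1, which listed neither site in the Antp interval, these and the 59.1 kb between those sites formed a single stretch of 250.5 kb, 3R:2649370-2899831. This was the longest of the 1831 stretches between neighbouring regions of 3R in that list, and the sixth longest of 6299 on 2L, 2R, 3L and 3R. In replicate 2 the longest stretch touching the window was 92.1 kb, 19th of 2372, and in the combined list 92.5 kb, 12th of 2573. The median stretch between neighbouring regions of 3R was 4.00, 3.02 and 2.24 kb in the 3 lists.

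**Figure D4:**
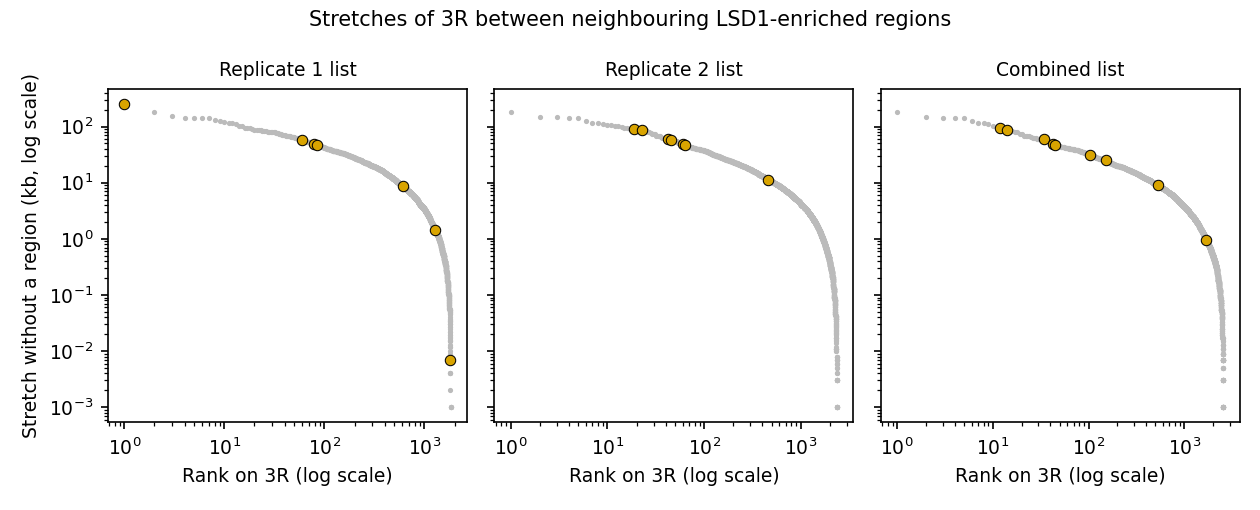
Length in kb of each stretch of 3R between neighbouring LSD1-enriched regions (y axis, log scale) against its rank from the longest (x axis, log scale), one panel per list. Yellow points are stretches that touch the window of the complex. In replicate 1 the longest stretch of the arm, 250.5 kb, is among them, and in replicate 2 and the combined list the longest yellow points are 92.1 and 92.5 kb.

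Empty segments were spread along the whole complex. Of its 18 segments of 20 kb, 14 and 12 held no region in replicates 1 and 2, and 11 held none of the combined regions, or 77.8%, 66.7% and 61.1%. Of all 1395 such segments of 3R, 25.4%, 19.1% and 15.3% were empty. The segment with the highest coverage was the one of the highest-scoring site, with 25.5%, 26.2% and 26.3%. In the interval given to Antp, 106 kb long, replicate 1 listed 0 regions, replicate 2 listed 2 regions covering 3102 bp (2.93%) and the combined list 2 regions covering 3014 bp (2.84%). The remaining 254 kb of the window were covered to 4.45%, 4.09% and 5.36%. The difference, Antp interval minus the rest of the window, was −2.81 percentage points ± 2.32 (SD, n = 2). It was −4.45 points in replicate 1 and −1.17 points in replicate 2, so its size is not separated from the spread between replicates. Among 262 windows of 106 kb along 3R, 4 had no covered base in replicate 1 (1.53%), the Antp interval included. In replicate 2 and the combined list 2 windows had none (0.763% each), and the Antp interval ranked 12th and 8th from the lowest. The median of the other windows of that size was 22.1%, 29.5% and 38.4%. Read numbers and the calling threshold are not known here, so a stretch without a listed region is one where enrichment was not called, which does not show that LSD1 was absent.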

How the data were processed

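Chromatin was crosslinked, sonicated and precipitated, per the labels' protocols. The submitters' processing notes name Bowtie 0.12.7. Per the file headers, positions follow release 5. How regions were called and at what threshold, the depth, the ChIP-to-input scaling and the making of the combined list: not given in the sources used here. No counting interval could be computed. The labels tie each input to the ChIP list of the same number.

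The deposited score is read as log2, although no header names its scale: once a constant was subtracted from each list, 2 to that power equalled a whole-number ratio (relative tolerance 1e-12, denominators up to 6000) in 8098 of 8115, 9911 of 9911 and 10998 of 11016 regions of replicate 1, replicate 2 and the combined list. After small random amounts were added, 0, 0 and 2 were. The 3 depletion entries of the combined list were left out, and none lay in the window.

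Covered shares, ranks, overlaps and free stretches were computed with Python 3.11.15, numpy 2.4.6 and pandas 2.3.3, after the functions were tested on simulated lists. Windows adjoin the complex in both directions, and partial ones at the ends of the arm were dropped. Coordinates are 1-based. Regions named are the 5 highest-scoring combined regions, up to 3 unshared ones per replicate by width, any of at least 10 kb and the longest free stretch. The remaining sites were named so that every member is accounted for. The members, lists and rules were chosen with earlier results of these data known. Promoter occupancy and gene coverage were planned but not run, because the gene table follows another release.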

Additional observations from a re-analysis of the deposited data

How the results depend on the processing

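The covered share of the complex stayed below the median of the compared windows under each of 11 alternatives. The difference of −25.4 percentage points moved to −17.5 and −10.1 with the upper 50% and 25% of regions by score, to −18.0 with stretches listed in both replicates, and to −35.3 in the combined list. The first 3 count fewer bases by construction, and the combined list covers more of the arm. Leaving out a replicate gives the value of the other one, −26.8 or −24.0. The complex was lowest in each replicate except with the upper 25% by score, where it ranked up to 6th of 76, among windows sliding by 10 kb (7th of 2755, the 6 lower ones all overlapping it) and among windows of 4 arms (up to 7th of 263). Without its widest site the share was 2.01%, but the other windows kept all their regions, so this share could only fall. The score difference of −0.13 ranged from −0.21 to −0.06 when a replicate was left out, and the Antp difference of −2.81 points from −4.45 to −1.17. The longest free stretch, 171.3 kb on average, was 92.1 to 250.5 kb in single replicates: without replicate 1 it falls to 92.1 kb. Recurrence, 75% over both directions, moved to 100% with the upper 50% by score, which left 2 and 1 regions. Alternatives with the combined list, without the widest site and for the longest stretch were chosen after seeing the data. Of 29 alternatives, 5 moved a value beyond the SD of 2 replicates and 0 turned its direction. Leaving out 1 of 2 replicates moves a mean by less than their SD by construction, so those alternatives could not count as moved. Recurrence and stretch lengths cannot be negative, so their direction could not turn. The count is therefore partly fixed in advance. No paired analysis was possible because the results come from no test and the input samples have no list of their own. Depth limits what an absent region shows.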

Other observations

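Windows less covered than the complex existed on other autosome arms. Of 263 windows of 360 kb on 2L, 2R, 3L and 3R, those lower than the complex numbered 5 and 6 in replicates 1 and 2 and 5 by the combined regions, and none of them lay on 3R or 2R. The window 2L:5360001-5720000 was lower in every list, with 1.11%, 2.98% and 2.60%, and it lies 17.3 Mb from the high-coordinate end of its arm. The others were toward the high-coordinate ends of 2L and 3L, and they ended 0.104 to 1.18 Mb before the last base. Along 3R in steps of 10 kb, the least covered window was 3R:2540001-2900000 in replicate 1 (1.90%), and 3R:2490001-2850000 in replicate 2 (3.21%) and in the combined list (3.67%), all of which overlap the complex.

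Among the 5 least covered windows of 3R, 2 were common to all 3 lists, the complex and 3R:11120001-11480000. The replicates differed on others. The window 3R:20840001-21200000 had rank 4 from the lowest in replicate 1 (9.93%) and 21 in replicate 2 (24.3%), and 3R:1760001-2120000 had ranks 5 (9.95%) and 13 (18.6%).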
